A study of Homo sapiens with 8 samples.

Results

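HSPA1B, BBC3 and STC2 code for a heat shock chaperone, a protein that starts apoptosis and a secreted stress hormone, and were taken by gene symbol as 3 of the 1950 genes in the deposited table. The libraries came from K562 cells, an established human leukemia line of erythroid character that lacks functional p53. Extract cells were given Caulis Polygoni Multiflori, a medicinal plant stem abbreviated CPM in the labels, at 80 µg/mL for 3 days (4 libraries), and control cells were treated without it (4 libraries). Neither a time in culture nor a carrier is given for controls, and a difference in either cannot be told apart from the extract. All libraries are of 1 cell line with no stated genetic change, and the labels do not say whether they are separate cultures, so the p-values below rest on a spread between libraries that may be purely technical. The series title asks whether CPM promotes megakaryocyte and platelet formation through PI3K/Akt and MEK/ERK signaling.

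HSPA1B makes inducible HSP70, which binds unfolded proteins and uses ATP to let them refold. The nearly identical neighbouring gene HSPA1A makes the same kind of protein, and heat shock factors switch both on when proteins are damaged. BBC3 makes PUMA, a BH3-only protein that binds survival proteins of the BCL2 family at mitochondria and so frees BAX and BAK to open the outer membrane. It is best known as a target of p53, but FOXO factors and stress-induced factors can also raise it. STC2 makes stanniocalcin 2, a secreted glycoprotein raised by ATF4 in the integrated stress response, in which cells slow protein synthesis and turn on amino acid and redox genes. Stanniocalcin 2 also blocks PAPP-A, the protease that frees insulin-like growth factors from the binding protein IGFBP4.

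HSPA1B was measured in a region that is nearly duplicated, so its sequence is shown first. HSPA1B (ENSG00000204388) lies on chromosome 6 from 31827735 to 31830255 on the plus strand of GRCh38, as 1 exon of 2521 bases, and HSPA1A lies 9789 bases before it on the same strand. The coding sequences of both genes have 1923 bases and differ at 4 of them (99.8% identical). The 60 coding bases below hold 2 of those 4 positions, in capitals; all other letters are the same in both genes. They are at chr6:31829796-31829855 for HSPA1B and chr6:31817602-31817661 for HSPA1A.
HSPA1B: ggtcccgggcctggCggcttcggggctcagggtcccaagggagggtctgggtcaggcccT
HSPA1A: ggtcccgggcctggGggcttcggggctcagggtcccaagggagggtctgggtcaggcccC

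Of all 100-base windows of the HSPA1B transcript, 68.8% occur letter for letter in an HSPA1A transcript (71.4% of 50-base and 66.0% of 150-base windows; no source used here states the read length). Reads from such windows could have come from either gene, so the HSPA1B values below may hold HSPA1A RNA. HSPA1A itself was not analysed here. For BBC3 and STC2 no window of their longest transcripts was found in another gene (0% at each of the 3 lengths).

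The bases before both genes carry the same match to GAANNTTC, a short motif found within heat shock elements. They are shown to compare the bases before both genes, and the match alone does not mark a whole element. The capitals mark the match, 102 bases before the annotated start of HSPA1B and 27 bases before the first annotated start of HSPA1A. These distances rest on the annotated starts, and in the alignment described below the matches lie opposite each other. The windows are chr6:31827488-31827734 and chr6:31815293-31815463, plus strand, from RefSeq on GRCh38.p14, ending before the first annotated base of each gene.
HSPA1B: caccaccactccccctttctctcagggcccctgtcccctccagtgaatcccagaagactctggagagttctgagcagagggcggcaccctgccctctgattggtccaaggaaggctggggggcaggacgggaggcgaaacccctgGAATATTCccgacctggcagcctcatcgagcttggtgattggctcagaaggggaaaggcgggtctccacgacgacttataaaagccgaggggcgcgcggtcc
HSPA1A: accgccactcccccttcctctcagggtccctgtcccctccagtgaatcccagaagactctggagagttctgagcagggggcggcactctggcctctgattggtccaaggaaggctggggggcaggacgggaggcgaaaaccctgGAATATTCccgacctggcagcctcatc

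The 171 bases of HSPA1A aligned to those of HSPA1B with 164 identical letters and 7 mismatches (95.9% identical). The motif reads the same on both strands, and no other motif was searched for. Among 35116 RefSeq promoter windows of 300 bases, 6.77% held at least 1 match. HSPA1B and HSPA1A had 1 match each, and BBC3 and STC2 had 0 in their windows. A match is a description of the letters, and factor binding was not measured.

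With the extract, HSPA1B RNA was about 2-fold higher, and BBC3 and STC2 RNA was about 2-fold lower. The values below are the deposited expression values, whose unit no source used here states. They compare libraries for 1 gene, and say nothing of which gene has more RNA. In bulk RNA, a change in the number of cells that make a transcript and a change in transcript per cell cannot be told apart. The authors had already chosen every gene in the table for a difference between these same 8 libraries, so no test below is independent evidence of one.

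HSPA1B had expression values of 196.01, 194.32, 187.3 and 193.77 in extract libraries 1 to 4, against 91.39, 97.57, 93.02 and 98.14 in control libraries 2 to 5. All extract values lay above all control values, as in 21.9% of the tested genes, and the lowest extract value was 1.91 times the highest control value. The means were 193 ± 3.82 with the extract and 95.03 ± 3.34 in controls (SD, n = 4 each), a ratio of 2.03. The coefficient of variation was 1.98% in extract and 3.51% in control libraries, so the spread within groups was small beside the difference. The limma log2 difference of HSPA1B, on the log2(value + 1) scale, was 1.01 ± 0.0327 (SE; 95% interval 0.94 to 1.09), with adjusted p = 1.02e-07. The authors' deposited table gave HSPA1B a fold change of 2.07 and listed its p-value as 0.

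BBC3 had expression values of 7.43, 6.33, 4.91 and 6.47 in extract libraries 1 to 4, against 12.35, 15.49, 12.4 and 12.44 in control libraries 2 to 5. All extract values were below all control values, as in 45.9% of the tested genes, and control 3 stood above the other controls. The means were 6.29 ± 1.04 with the extract and 13.2 ± 1.55 in controls (SD, n = 4 each), so that extract cells had 0.477 times the control level. The lowest control value was 1.66 times the highest extract value. BBC3 fell by 0.97 on the log2 scale (SE 0.123, 95% interval −1.25 to −0.68), with a limma adjusted p of 0.00027. The authors' deposited table gave BBC3 a fold change of 0.475.

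BBC3 (ENSG00000105327) spans 11945 bases of chromosome 19, from 47220822 to 47232766 on the minus strand of GRCh38. GENCODE 29 annotates 6 transcripts for it, of which 4 have coding sequence. PUMA isoforms are known that carry the BH3 domain and others that lack it, and the deposited value is 1 figure for the gene, so the isoforms were not told apart. The microRNA genes MIR3190 and MIR3191 lie inside BBC3 (80 and 76 bases) and were not analysed here.

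STC2 had expression values of 4.17, 5.22, 3.71 and 5.07 in extract libraries 1 to 4, against 8.33, 8.74, 8.12 and 10.04 in control libraries 2 to 5. All extract values were below all control values, as in 45.9% of the tested genes, and control 5 was the highest library. The means were 4.54 ± 0.723 with the extract and 8.81 ± 0.861 in controls (SD, n = 4 each), or 0.516 times the control level. STC2 fell by 0.83 on the log2 scale (SE 0.114, 95% interval −1.09 to −0.57), with a limma adjusted p of 0.000405. The authors' deposited table gave STC2 a fold change of 0.524. STC2 (ENSG00000113739) lies on chromosome 5 from 173314713 to 173329503 on the minus strand of GRCh38, and its longest transcript, of 5353 bases, has 4 exons.

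**Figure D1:**
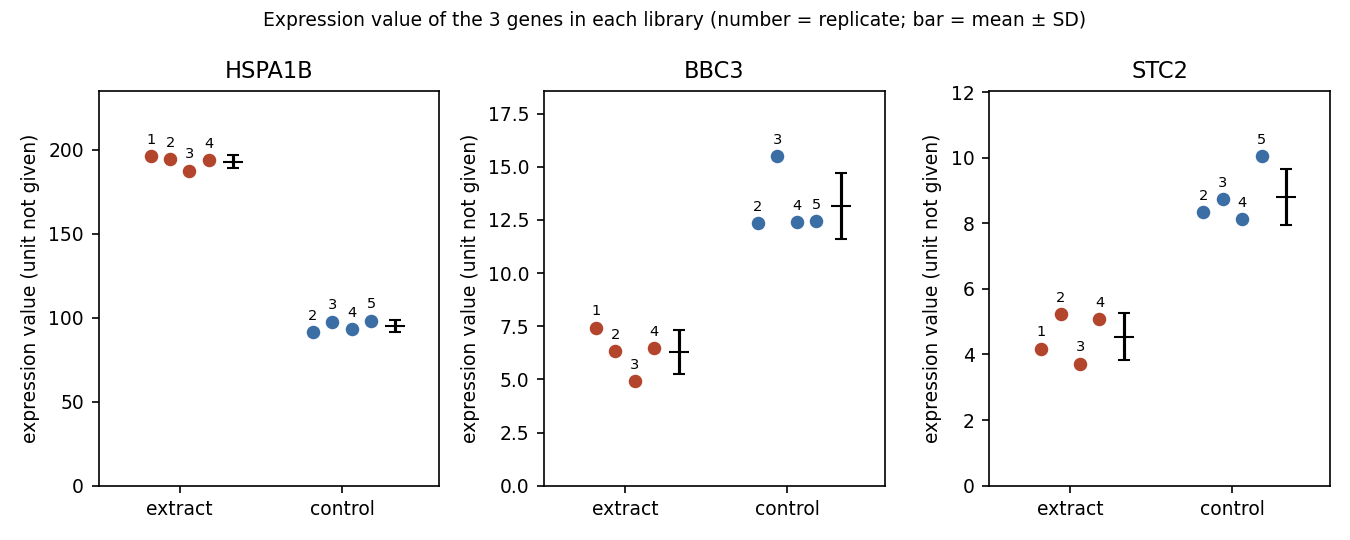
Expression value (vertical axis, unit not given, starting at 0) of HSPA1B, BBC3 and STC2 in each extract (red, left) and control (blue, right) library, with the replicate number above each point and the group mean ± SD as a bar (n = 4). HSPA1B lies between 187.3 and 196.01 with the extract and between 91.39 and 98.14 in controls, while BBC3 and STC2 are lower in every extract library than in any control library.

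The table as a whole sets how these calls are to be read. Of the 750 genes tested with limma, 82.8% were called at an adjusted p under 0.05, with 26.8% higher and 56.0% lower with the extract, and in 67.7% the groups did not overlap. A call or a clean separation is therefore common in this table. For each of the 3 genes the exact two-sided permutation test of 4 against 4 libraries gave p = 0.0286, the smallest that this design allows.

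The size of the difference places the genes more closely. HSPA1B ranked 20 of the 255 genes with a positive log2 difference by its size, and 7 of 750 by p. BBC3 ranked 58 and STC2 ranked 109 of the 495 genes with a negative log2 difference. By mean value HSPA1B ranked 10, BBC3 144 and STC2 214 of the 750, and the log2(value + 1) scale understates the change of low genes. These ranks therefore do not show which of the 3 genes changed most. When the limma p-values were adjusted over the 60664 genes that the authors' adjusted p-values imply, 22.3% of tested genes kept an adjusted p under 0.05. HSPA1B, BBC3 and STC2 were among these, with limma adjusted p = 8.22e-06, 0.0218 and 0.0328.

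Most tested genes were lower with the extract, which bears on how the falls are read. The medians of the extract libraries over the tested genes were lower than those of the controls by 0.27 (log2 difference −0.27). With every library centred on its median, 62.5% of tested genes were called, 30.4% higher and 32.1% lower. Relative to that shift the log2 difference was 1.28 for HSPA1B, −0.70 for BBC3 and −0.56 for STC2, all with a limma adjusted p under 0.05 (largest 0.00408, for STC2). Before centring, the median log2 difference of the tested genes was −0.50, so centring took away only part of their fall. The authors listed only genes chosen for a difference, 1100 of them lower and 850 higher, so the median over them is no neutral baseline. Whether the lower medians come from that choice, from the cells or from the libraries was not tested.

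**Figure D2:**
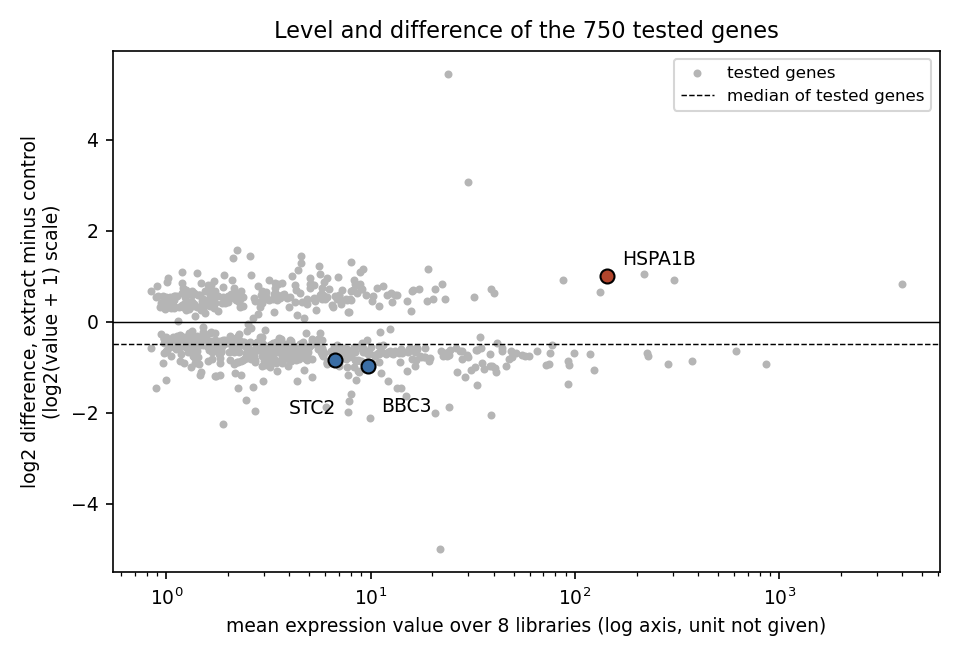
Mean expression value over the 8 libraries (horizontal log axis, unit not given) against the log2 difference of extract minus control (vertical axis) for the 750 tested genes (grey), with HSPA1B in red and BBC3 and STC2 in blue. The dashed line is the median difference of the tested genes, −0.50. The table lists only genes chosen for a difference, so few lie near 0.

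A ratio of 2 genes within a library does not depend on the scaling between libraries; only its change between groups is read here, not its size. The ratio of HSPA1B to BBC3 expression values was 26.4, 30.7, 38.1 and 29.9 in extract libraries 1 to 4, against 7.40, 6.30, 7.50 and 7.89 in control libraries 2 to 5. On average it was 4.30 times as high with the extract. The ratio of HSPA1B to STC2 averaged 43.2 ± 6.53 with the extract and 10.8 ± 0.738 in controls (SD, n = 4 each). The ratio of BBC3 to STC2, the genes that both fell, lay between 1.21 and 1.78 with the extract and between 1.24 and 1.77 in controls, so the groups overlapped almost wholly.

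HSPA1B was the 1 listed heat shock gene. Of 24 genes of the HSP70 family and its co-chaperones, which load and release HSP70 clients, 1 was in the table, HSPA1B. It was called higher, as were 26.8% of tested genes. Of 24 heat shock factors and other heat shock genes, among them HSF1, HSP90AA1 and DNAJB1, 0 were in the table, and of 24 genes of the unfolded protein response, such as HSPA5 and XBP1, 0 were. A gene outside the table was not analysed here, so a change of heat shock genes as a group is not shown.

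A second listed locus shares sequence with HSPA1B. ENSG00000285565, named AL671762.1 in GENCODE 29 and annotated as a processed transcript on the same strand, begins inside HSPA1B, and its first exon of 920 bases lies wholly within the HSPA1B coding sequence. That exon is 68.8% of the 1338 bases of the transcript and 36.5% of those of HSPA1B, so reads there could not be told apart. The other exons lie within the span of the gene C6orf48 on the same strand. Whether they share bases with the exons of C6orf48 was not tested. The expression values of ENSG00000285565 were 18.76, 29.24, 20.61 and 18.64 in extract libraries 1 to 4, against 11.59, 21.07, 16.84 and 13.48 in control libraries 2 to 5. The groups overlapped, with means of 21.8 ± 5.03 with the extract and 15.7 ± 4.16 in controls (SD, n = 4 each) and a limma adjusted p of 0.0623. The authors' deposited table gave this locus a log2 fold change of 0.64, against 1.05 for HSPA1B. The authors' adjusted p for this locus was 8.24e-29, from a tool not given, although its groups overlapped. A small deposited p therefore does not show that the libraries of the groups separate.

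**Figure D3:**
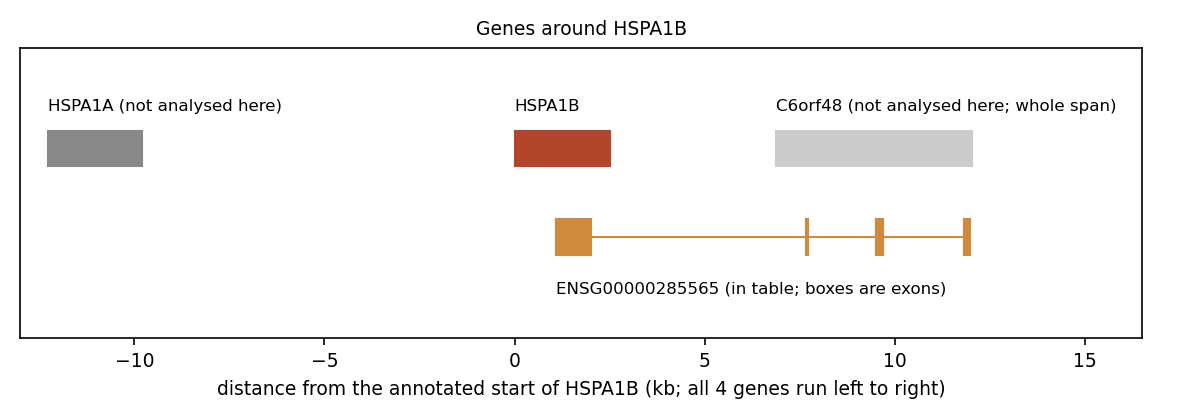
Map of the genes around HSPA1B, with distance from its annotated start in kb on the horizontal axis. HSPA1A lies 9789 bases to the left, and the first exon of ENSG00000285565, 920 bases long, sits inside the single exon of HSPA1B.

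BBC3 was the 1 tested gene of the apoptosis lists. Of 23 BCL2 family genes 2 were in the table, BBC3 and BCL2L14, and BBC3 was called lower (56.0% of tested genes were). BCL2L14, a little-studied family member, was listed at 0 in all 4 extract libraries and at 0.03, 0.24, 0 and 0 in control libraries 2 to 5, too low to test. The other BH3-only genes of the list, among them PMAIP1 and BCL2L11, were not analysed here. Of 30 genes of the p53 pathway, 1 was in the table, again BBC3, and the others, such as CDKN1A and MDM2, were not analysed here.

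Among 28 genes for caspases, their inhibitors and death receptors, 2 were in the table and 0 could be tested. BIRC3, which codes for an inhibitor of apoptosis that restrains death receptor signaling, had values of 0.42, 0.54, 0.29 and 0.41 in extract libraries 1 to 4, against 0.8, 0.96, 0.77 and 1 in control libraries 2 to 5. These groups did not overlap, and 45.9% of tested genes likewise had all extract values below all control values. The BIRC3 values lie under the filter, and the authors' deposited table gave a log2 fold change of −0.80. FASLG, the ligand of the FAS death receptor, was at or near 0 in every library, with a highest value of 0.09 with the extract and 0.27 in controls.

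STC2 fell together with the other listed genes of the integrated stress response. Of 32 genes in that list 5 were in the table, all 5 could be tested, and all 5 were called lower (56.0% of tested genes were). Their median log2 difference, with STC2 among them, was −0.71. The median over all tested genes, −0.50, pools genes that rose with genes that fell. Setting the medians side by side therefore does not show that these falls were larger than other falls. With median centring 3 of the 5 were called lower (32.1% of tested genes), STC2, ATF3 and SLC7A11. Over the family of 60664 genes 2 were (16.3% of tested genes), STC2 and ATF3. The other genes of the list, such as ATF4 and DDIT3, were not analysed here, so a change of the response as a group is not shown.

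ATF3, a transcription factor induced by ATF4, had values of 3.22, 3.45, 5.13 and 4.36 in extract libraries 1 to 4, against 8.29, 8.34, 8.32 and 7.73 in control libraries 2 to 5. It fell by 0.88 on the log2 scale (limma adjusted p = 0.000479), close to the fall of STC2. The cystine importer SLC7A11, which feeds glutathione synthesis, had values from 2.57 to 2.98 with the extract and from 4.25 to 5.16 in controls, and fell by 0.56 (limma adjusted p = 0.000772, and 0.0625 when adjusted over 60664 genes). CEBPB, a transcription factor that pairs with ATF4, was less even. Its values ran from 4.72 to 6.09 with the extract and from 6.7 to 12.94 in controls, and it fell by 0.71 (limma adjusted p = 0.00647). Median centring (limma adjusted p = 0.0543) and adjustment over 60664 genes (limma adjusted p = 0.523) ended its call.

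ALDH1L2, a mitochondrial folate enzyme, was the weakest of the 5. Its values were 1.42, 1.68, 1.54 and 2.63 in extract libraries 1 to 4, against 2.43, 2.46, 2.64 and 2.76 in control libraries 2 to 5, so extract 4 lay among the controls. It fell by 0.36 (limma adjusted p = 0.0384), and this call was lost in 7 of the 8 fits that left out 1 library, with limma adjusted p up to 0.0961. Without extract 4 it was kept (limma adjusted p = 0.00407). It was also lost with median centring (limma adjusted p = 0.56), with quantile normalization (limma adjusted p = 0.399), without a filter (limma adjusted p = 0.0596), in the 6 libraries with shared numbers with and without the replicate block (limma adjusted p = 0.155 and 0.168) and when adjusted over 60664 genes (limma adjusted p = 1).

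**Figure D4:**
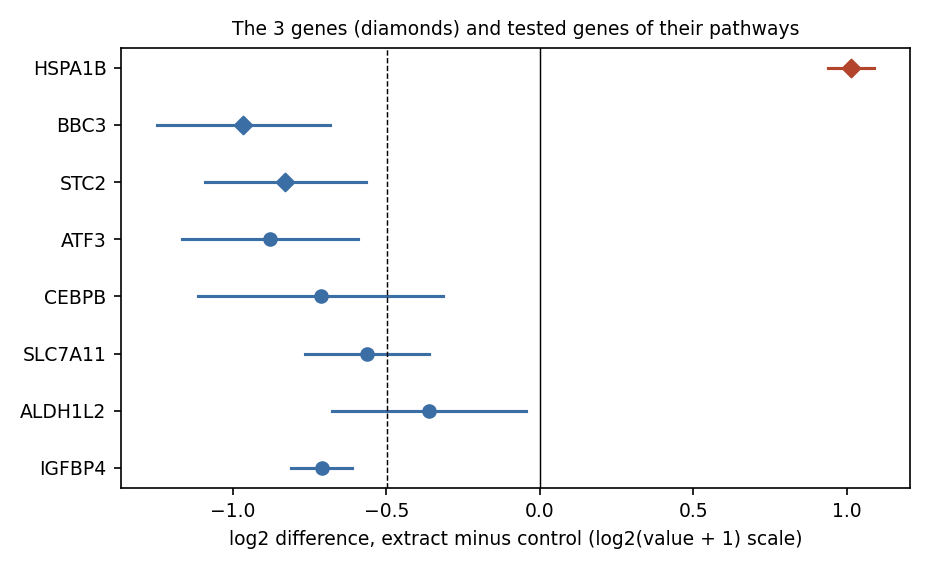
Log2 difference of extract minus control (horizontal axis) with its 95% interval from limma for HSPA1B, BBC3 and STC2 (diamonds) and the other tested genes of the fixed lists (circles). HSPA1B is at 1.01, the 7 other genes lie between −0.97 and −0.36, and the dashed line is the median of the tested genes.

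RNA of IGFBP4, the binding protein on which the target of stanniocalcin 2 acts, was also lower. Of 16 genes for stanniocalcins and the IGF axis 3 were in the table, STC2, IGFBP4 and INSR. Of these 2 could be tested, and both were called lower, as were 56.0% of all tested genes. IGFBP4, which holds insulin-like growth factors until PAPP-A cuts it, had values of 28.94, 28.86, 28.22 and 29.26 in extract libraries 1 to 4, against 45.31, 49.94, 46.79 and 49.21 in control libraries 2 to 5. Both groups were tight, and the log2 difference of IGFBP4 was −0.71 ± 0.0435 (SE; limma adjusted p = 5.79e-06). With quantile normalization it was −0.05 and its call was lost (limma adjusted p = 0.491). INSR, the insulin receptor gene, was under the filter, with values from 0.24 to 0.8 with the extract and from 0.06 to 0.59 in controls. PAPPA, which codes for PAPP-A, and STC1 were not analysed here.

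Among the 533 other tested genes with a symbol that are no pseudogenes, those whose log2 values followed each member most closely over the 8 libraries were named by Pearson's r, as a description. The points share their libraries and fall into 2 separate groups, so any gene that differs as steadily between them scores high. For HSPA1B these were HBZ, an embryonic globin (r = 0.998), MYC, a growth-promoting transcription factor (r = 0.998), and CISH, a feedback inhibitor of cytokine receptors (r = 0.997). For BBC3 they were PPP1R14A, an inhibitor of myosin phosphatase (r = 0.989), the noncoding PAXIP1-DT (r = 0.988) and F2R, a thrombin receptor (r = 0.984). For STC2 they were PPP1R35 (r = 0.994), SEC24D, a coat protein of vesicles leaving the endoplasmic reticulum (r = 0.984), and CNN1, an actin-binding calponin (r = 0.973).

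Taking each group's mean away left the deviations of the libraries, which also entered the r by which these genes were picked. With STC2 the r of deviations was 0.954 for SEC24D, 0.952 for PPP1R35 and 0.764 for CNN1. With BBC3 it was 0.891 for PPP1R14A, 0.873 for PAXIP1-DT and 0.828 for F2R. For HSPA1B, whose libraries barely differed within a group, the r of deviations was 0.664 with HBZ, 0.541 with MYC and 0.242 with CISH. The 3 genes named for STC2 were, like it, highest in control 5, where PPP1R35 had 43.15, against 37.75 to 40.51 in the other controls.

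Listed values summed to between 13113.8 and 13433.5 in extract libraries and between 13629.4 and 14134.1 in control libraries, but the table is partial, so these sums do not measure depth. Log2 values of the tested genes correlated at 0.938 to 0.962 within groups and at 0.819 to 0.875 across them, and no 2 libraries were identical. Of 14 markers of K562 and erythroid cells 1 was in the table, HBZ, at 4951.9 to 5306.0 with the extract and 2834.06 to 2920.21 in controls, so that this globin, like HSPA1B, was higher with the extract (log2 difference 0.83, limma adjusted p = 3.99e-08). Of 6 fibroblast and epithelial markers 1 was, COL1A1, at 0.24 to 0.36 with the extract and 0.47 to 0.67 in controls. The part of these genes in the results was not tested.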

How the data were processed

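RNA of K562 cells was sequenced in 8 libraries made with a TruSeq kit from TRIzol RNA, per the labels' protocols, 4 with the extract and 4 without. Groups follow each sample's treatment label; the treatment protocol text is the same for all 8. HISAT2 and StringTie are the tools, and GRCh38 the genome build, in the submitters' processing notes, which give no versions; whether counting used strand was not stated. The deposited values are a non-negative expression signal per gene with 2 decimals, in a unit that no header or label names; they are no counts, and the depth is unknown. The deposited table also holds the authors' ratio (fold change) with its log2, and p-values before and after adjustment, from a tool not given in the sources used here. No listed gene had a deposited p above 0.0499 or an absolute log2 fold change below 0.585.

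The 750 of 1950 genes that reached a value of 1 in 4 or more libraries were tested with limma 3.58.1 (R 4.3.3; trended, robust moderation) on log2(value + 1), which understates the change of low genes. P-values were Benjamini-Hochberg adjusted over the 750 genes and called at 0.05. The size of the authors' family, 60664, gave whole ranks within 0.02 for 100% of 1379 usable genes. For the adjustment over that family, each gene not tested with limma was given the largest possible p. The exact permutation test used scipy 1.17.1. Positions and transcripts came from GENCODE 29 on GRCh38, which matched 1866 of the 1950 gene IDs, and upstream bases from RefSeq on GRCh38.p14. Shared windows are exact matches to transcripts of other genes.

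The 3 genes, the 8 gene lists (190 genes, 12 of them in the table) and the tests were chosen with earlier results of these data known. Genes named are the 3, listed genes of the lists, and for each of the 3 the tested genes with the highest r. The locus ENSG00000285565 and the gene INAFM1 were named after their values were seen, because they overlap or neighbour a member. Alternatives were another pseudocount, filter, scaling, moderation or family, a replicate block and leaving out each library. The fit was tested on simulated data. The result of 1 marker list is not reported here.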

Additional observations from a re-analysis of the deposited data

Results flagged for a closer look

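In 23 named genes, 45 groups of 4 libraries with unequal values were examined for a library whose gap to the nearest other exceeded Dixon's 95% critical value. There were 5 such groups, where chance alone gives about 2.2. BBC3 was highest in control 3, at 15.49, with the other controls from 12.35 to 12.44. ATF3 was lowest in control 5, at 7.73, with the other controls from 8.29 to 8.34, a gap that is small beside the extract values of 3.22 to 5.13. BCL2L14 was 0.24 in control 3, with the other controls from 0 to 0.03. FASLG was 0.09 in extract 2 and listed at 0 in the other extract libraries, and it was 0.27 in control 4, with the other controls from 0 to 0.04. Both of these genes are near the lowest value the table can hold. Without control 3 the log2 difference of BBC3 was −0.89 (limma adjusted p = 0.00087).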

How the results depend on the processing

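HSPA1B kept its direction and its call in all 19 alternatives, and BBC3 and STC2 in all 18. The log2 difference lay between 0.95 and 1.35 for HSPA1B, −1.06 and −0.70 for BBC3 and −0.95 and −0.56 for STC2, with limma adjusted p up to 0.00107, 0.0218 and 0.0328. Leaving out each library gave 0.995 to 1.03, −1.04 to −0.87 and −0.89 to −0.75. Adding the values of the overlapping locus to HSPA1B, chosen after seeing the data, gave a log2 difference of 0.95. Over all genes 621 were called, against 253 with a filter of 5, which tests 277 genes, 881 with no filter, which tests 1950, 167 over the family of 60664 genes and 538 to 584 without a library. The stress response list had 5 calls, against 3 with the filter of 5, 3 with median centring, 2 over that family and 4 to 5 without a library. The IGF list had 2, against 1 with quantile normalization. Where no gene count shows it, the cause was not tested. Same-numbered libraries deviated together only weakly (r = 0.0754, 0.0754 and 0.149 for numbers 2, 3 and 4). Controls 3 and 4 correlated best with the extract library of their own number, but control 2 did so with extract 1 (r = 0.136). Whether the numbers mark pairs cannot be told from values this weak. With the replicate block on these 6 libraries 515 genes were called, against 527 without it, and the log2 differences were 1.02, −1.06 and −0.74 for HSPA1B, BBC3 and STC2. The depth is unknown, so counting error could not be given.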

Other observations

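Within 50000 bases on either side of the 3 genes, 1 of 13 annotated neighbours of HSPA1B, 1 of 5 of BBC3 and 0 of 3 of STC2 were in the table. The neighbour of BBC3 was INAFM1, a short protein gene on the other strand of chromosome 19 (47274453 to 47275707), 41687 bases away. Its values were 4, 1.65, 2.13 and 4.39 in extract libraries 1 to 4, against 13.16, 17.13, 12.85 and 7 in control libraries 2 to 5. All its extract values were below all its control values, as in 45.9% of the tested genes. INAFM1 fell by 1.75 on the log2 scale (SE 0.309, limma adjusted p = 0.00143), a larger fall than the 0.97 of BBC3. The genes between and beside them, CCDC9 and SAE1, were not analysed here.

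The ratio of IGFBP4 to STC2 expression values lay between 5.53 and 7.61 in extract libraries and between 4.90 and 5.76 in control libraries, so the groups overlapped.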
